A study of Mus musculus with 16 samples.

Results

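The response of the lung mesenchyme to bleomycin was compared between lines that carry a lineage label under the Acta2 and the Pdgfra promoter. All 16 mice of the series entered this comparison, as a design of 2 lines by 2 treatments with 4 mice in each group, and 16 of 16 samples were used. Bleomycin is a cytotoxic drug that injures the alveolar epithelium when given into the airways and is followed by fibrosis, and saline served as its control. The quantity of interest was the effect of bleomycin in Acta2-tdT cells minus its effect in Pdgfra-tdT cells, called the difference of effects here. It shows which genes responded in one line more than in the other, and the effects of both lines side by side show which genes they shared.

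All 4 groups carry a floxed tdTomato reporter and a tamoxifen-dependent Cre recombinase, and all received tamoxifen. Acta2-tdT mice (Acta2-CreERT2; tdTomatoflox) received tamoxifen in food at 400 mg/kg, starting on day 5 after saline or bleomycin. Pdgfra-tdT mice (Pdgfra-CreERT2; tdTomatoflox) received 5 injections of 3 mg tamoxifen at 6 weeks of age, before either treatment. The labels give 11 weeks of age and 14 days of saline or bleomycin for all groups. The Acta2 label could therefore include cells that turned on Acta2 after the injury, whereas the Pdgfra label was set before it, so line and labelling schedule cannot be told apart. In each mouse the left lung lobe was dissociated, tdTomato-positive cells were sorted into lysis buffer, and RNA was sequenced with SmartSeq2 (a method for small inputs that copies whole transcripts).

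Acta2 encodes smooth muscle alpha-actin, which is found in airway and vascular smooth muscle, in some pericytes and in the myofibroblasts of scars. Pdgfra encodes a receptor for platelet-derived growth factor that marks alveolar and adventitial fibroblasts in the adult lung. After injury, mesenchymal cells lay down fibrillar collagens and glycoproteins such as periostin and tenascin C, while monocyte-derived macrophages gather in the damaged tissue and express lysosomal proteases and osteopontin.

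Values are FPKM (fragments mapped to a gene, corrected for transcript length and library size), scaled so that the nuclear protein-coding genes of every mouse had the same sum. Levels are given per mouse in replicate order or as mean ± SD, and effects of bleomycin as log2 differences of scaled FPKM + 1 with their SE and a p adjusted over all tested genes (limma, Benjamini-Hochberg), always with 4 mice in a group. Because 1 is added before the log, the effects of genes near or below 1 are understated. The libraries were very unequal before that step. The number of nuclear protein-coding genes with a deposited FPKM of at least 1 in the Acta2 line was 3634 to 5891 with saline, compared with 10016 to 10727 with bleomycin. It was 2177, 2035, 6479 and 2345 in Pdgfra-tdT saline mice 1 to 4, and 7909, 4718, 4033 and 2220 in Pdgfra-tdT bleomycin mice 5 to 8. Pairs of mice correlated across 7191 genes at 0.954 to 0.981 in Acta2-tdT bleomycin and at 0.859 to 0.921 in Acta2-tdT saline, but only at 0.317 to 0.919 in Pdgfra-tdT saline and 0.287 to 0.843 in Pdgfra-tdT bleomycin. Olfactory and vomeronasal receptor genes, which are expressed in sensory neurons, gave a gauge of background. Their median deposited FPKM was 0.323 to 0.332 in Acta2-tdT saline, 0.0134 to 0.122 in Acta2-tdT bleomycin and 0.0917 to 0.336 in Pdgfra-tdT mice. The part of library quality and of this background in the results was not tested, and the 4 libraries with the fewest genes (Pdgfra-tdT saline 1, 2 and 4 and Pdgfra-tdT bleomycin 8) are left out where that is stated.

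The targeted promoters' own genes were read first. Acta2 was 186, 249, 259 and 267 in Acta2-tdT saline, 238, 261, 223 and 341 in Acta2-tdT bleomycin, 4.24, 10.8, 7.32 and 14.9 in Pdgfra-tdT saline and 6.92, 0.821, 0.966 and 1.44 in Pdgfra-tdT bleomycin. Every Acta2-tdT mouse was above every Pdgfra-tdT mouse, and the effect of bleomycin was 0.14 ± 0.54 (adjusted p = 0.849) in Acta2-tdT and -1.72 ± 0.54 (adjusted p = 0.168) in Pdgfra-tdT. On unscaled FPKM the Acta2-tdT effect was 3.13 (adjusted p = 0.00122). With a sum that left out predicted and receptor genes, the Pdgfra-tdT effect was -2.48 (adjusted p = 0.0257). Pdgfra was 0.363, 0.776, 0.334 and 0.322 in Acta2-tdT saline, 1.24, 0.529, 1.02 and 1.26 in Acta2-tdT bleomycin, 4.95, 3.57, 3.13 and 2.91 in Pdgfra-tdT saline and 0.873, 1.35, 2.33 and 1.68 in Pdgfra-tdT bleomycin. Its level was low everywhere and highest in Pdgfra-tdT saline, and the difference of effects was 1.34 ± 0.35 (adjusted p = 0.0315). That call was lost without any one of 9 libraries, and in neither line alone was the effect called. Of 14 alveolar fibroblast markers only 7 passed the filter on low values. Inmt, a methyltransferase of these fibroblasts, reached 3.99 ± 3.92 in Pdgfra-tdT saline. The summed level of the 14 markers in the Pdgfra line lay between 7.07 and 23.4 with saline, and between 6.94 and 31.9 with bleomycin, against 24.5 to 56.8 in Acta2-tdT saline, so these markers were not higher in the Pdgfra line. Endothelial markers were uneven among them. Cldn5, a tight junction protein of endothelium, was 12.4, 4.34, 202 and 6.81 in Pdgfra-tdT saline mice 1 to 4 and 264, 76.8, 22.6 and 4.18 in bleomycin mice 5 to 8, against at most 8.31 in any Acta2-tdT mouse. Pdgfra-tdT saline 3 and bleomycin 5 stood highest. The sum of the 18 endothelial markers in the Pdgfra line spanned 18.2 to 854 with saline, and 18.7 to 812 with bleomycin, and its part in the results was not tested. In sorted bulk RNA, fewer cells of a type and less RNA per cell cannot be told apart.

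Of 7191 genes tested, the difference of effects passed an adjusted p of 0.05 for 323, a background of 4.49%. For 202 of them (2.81%) the response was higher in Acta2-tdT, and for 121 (1.68%) it was lower. Within the lines, 1295 genes (18%) rose and 1621 (22.5%) fell in Acta2-tdT, while 65 (0.904%) rose and 4 (0.0556%) fell in Pdgfra-tdT. The median effect over all tested genes was 0.17 in Acta2-tdT and 0.11 in Pdgfra-tdT on the log2 scale. Of the 202 genes higher in Acta2-tdT, 201 also rose in Acta2-tdT by themselves, and 0 fell in Pdgfra-tdT by limma, where 133 of them had an effect below 0. Of the 121 genes lower in Acta2-tdT, 109 fell in Acta2-tdT and 7 rose in Pdgfra-tdT. Most of these genes thus changed in Acta2-tdT cells and were not called in Pdgfra-tdT cells. Part of this follows from the filter, which asked for a scaled FPKM of 1 in 4 mice. Of the 7191 genes, 1151 met it only with the help of the Acta2-tdT bleomycin mice, and these held 140 of the 202 higher calls, while the other 6040 held 62. Another 782 met it only with the help of the Acta2-tdT saline mice, and they held 49 of the 121 lower calls.

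**Figure D1:**
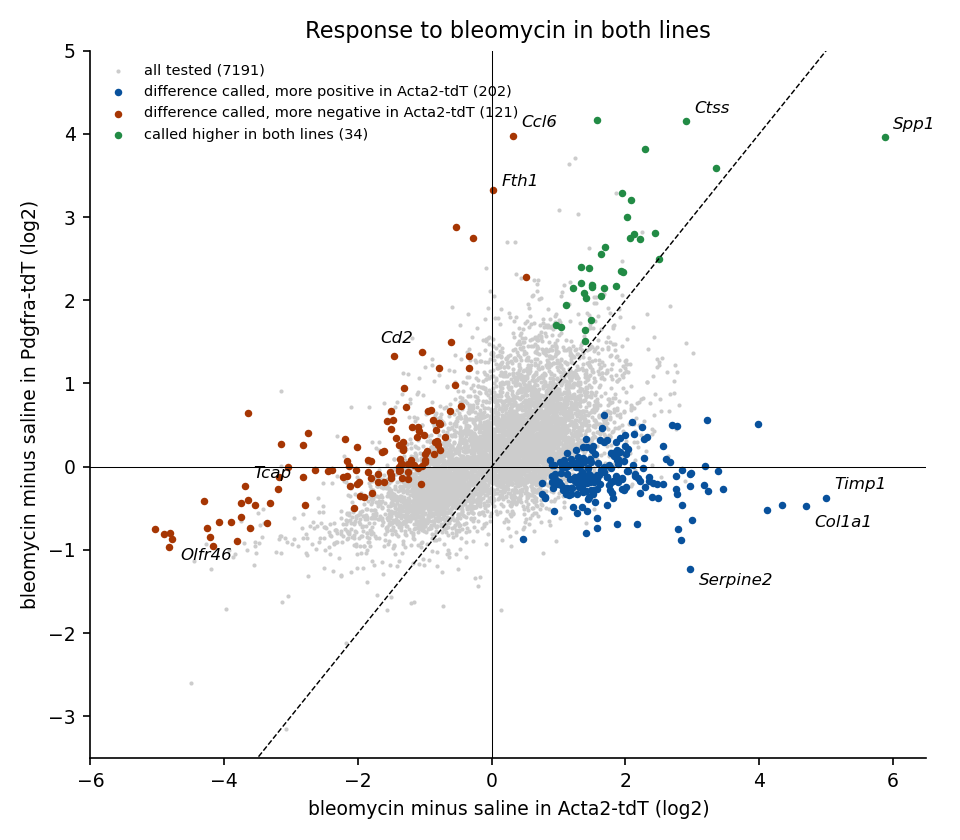
Each point is 1 of 7191 tested genes, placed by the effect of bleomycin in Acta2-tdT (x axis) and in Pdgfra-tdT (y axis), both as log2 differences of scaled FPKM + 1 with 4 mice in each group, and the dashed line marks equal effects. Genes with a called difference that was more positive in Acta2-tdT (202) lie to the right near a Pdgfra-tdT effect of 0, those with a more negative one (121) lie to the left or at the top, and genes called higher in both lines (34) lie at the upper right.

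The split of these calls moved with the settings. Lower calls outnumbered higher ones with a pseudocount of 0.1 (129 higher and 416 lower), with sample quality weights (525 and 1158), with a mean of at least 5 (19 and 35) and without Pdgfra-tdT bleomycin 5 (405 and 554). Under other scalings, higher against lower calls of the difference stood at 6556 and 144 on unscaled FPKM, 121 and 34 with a median of ratios, 155 and 56 after quantile normalization, 218 and 80 with the receptor background subtracted, and 114 and 35 when the sum left out predicted and receptor genes. Rises and falls in Acta2-tdT stood at 8698 and 607, 537 and 473, 738 and 454, 1280 and 804, and 429 and 628 under the same settings. The median difference of effects was 1.69 on unscaled FPKM against -0.13 after scaling, so directions below are relative to the total of nuclear protein-coding RNA. All 202 higher genes kept their sign under each setting in which they were tested. The 121 lower genes did so too, with the exception of unscaled FPKM, where 90 of 112 kept it.

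The genes that rose in Acta2-tdT alone were led by secreted matrix genes. Timp1, Col1a1, Cthrc1, Col1a2, Serpine2, Igfbp2, Mgp, Thbs1 and Postn were among those with the largest difference of effects. Timp1 (chrX:20870166-20874735, GRCm38), an inhibitor of matrix metalloproteinases, was 4.35, 7.04, 4.45 and 4.20 in Acta2-tdT saline, 248, 173, 136 and 219 in Acta2-tdT bleomycin, 1.84, 8.27, 4.18 and 7.45 in Pdgfra-tdT saline and 7.78, 6.10, 2.29 and 1.003 in Pdgfra-tdT bleomycin. Bleomycin and saline mice of the Acta2 line did not overlap, and those of the Pdgfra line did. The effect was 5.00 ± 0.53 (adjusted p = 3.57e-06) in Acta2-tdT and -0.37 ± 0.53 (adjusted p = 0.726) in Pdgfra-tdT, and their difference was 5.38 ± 0.75 (adjusted p = 0.000231). Col1a1 (chr11:94936224-94953042), which encodes the alpha-1 chain of type I collagen, was 2.74, 2.43, 1.89 and 2.08 in Acta2-tdT saline, 77.1, 58.4, 102 and 106 in Acta2-tdT bleomycin, 0.578, 2.55, 1.84 and 4.97 in Pdgfra-tdT saline and 4.74, 0.864, 0.582 and 0.510 in Pdgfra-tdT bleomycin. Among Pdgfra-tdT mice only bleomycin 5 and saline 4 came near 5, below every Acta2-tdT bleomycin mouse. The effect of bleomycin was 4.70 ± 0.48 (adjusted p = 1.93e-06) in Acta2-tdT and -0.47 ± 0.48 (adjusted p = 0.615) in Pdgfra-tdT, with a difference of 5.17 ± 0.67 (adjusted p = 0.000131).

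Cthrc1 (chr15:39076932-39087119), a collagen triple helix repeat protein secreted by injury-associated fibroblasts, was 0.786, 0.996, 0.218 and 0.697 in Acta2-tdT saline, 33.1, 35.0, 20.04 and 46.9 in Acta2-tdT bleomycin, 0.423, 1.196, 1.32 and 2.09 in Pdgfra-tdT saline and 0.915, 0.501, 0 and 1.15 in Pdgfra-tdT bleomycin. It was near the floor in saline mice of both lines and in Pdgfra-tdT bleomycin, and the difference was 4.80 ± 0.49 (adjusted p = 1.34e-05). Col1a2, the partner chain of type I collagen, differed by 4.64 ± 0.75 (adjusted p = 0.000867), with Acta2-tdT means of 3.53 ± 0.385 with saline and 78.1 ± 11.5 with bleomycin. Postn, which encodes the matricellular protein periostin, differed by 3.53 ± 0.61 (adjusted p = 0.00183), and its Acta2-tdT means were 7.34 ± 1.27 and 56.6 ± 7.86. The remaining members of the group were similar in form. Serpine2, a serine protease inhibitor, had a mean of 9.38 ± 2.43 in Acta2-tdT saline and 79.1 ± 11.3 in Acta2-tdT bleomycin, and 3.01 ± 1.64 and 0.693 ± 0.682 in the Pdgfra line. Igfbp2, a binding protein of insulin-like growth factors, went from 0.252 ± 0.0935 to 12.8 ± 1.84 in Acta2-tdT. The differences for Serpine2, Igfbp2 and Thbs1 were 4.20, 3.72 and 3.63 on the log2 scale, each with an adjusted p of at most 0.000489. Mgp, matrix Gla protein, had the highest level of the group. It was 162, 158, 186 and 120.0 in Acta2-tdT saline and 1245, 831, 1001 and 1453 in Acta2-tdT bleomycin, and its difference of 3.71 ± 0.97 (adjusted p = 0.033) lost its call without any one of 10 libraries.

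**Figure D2:**
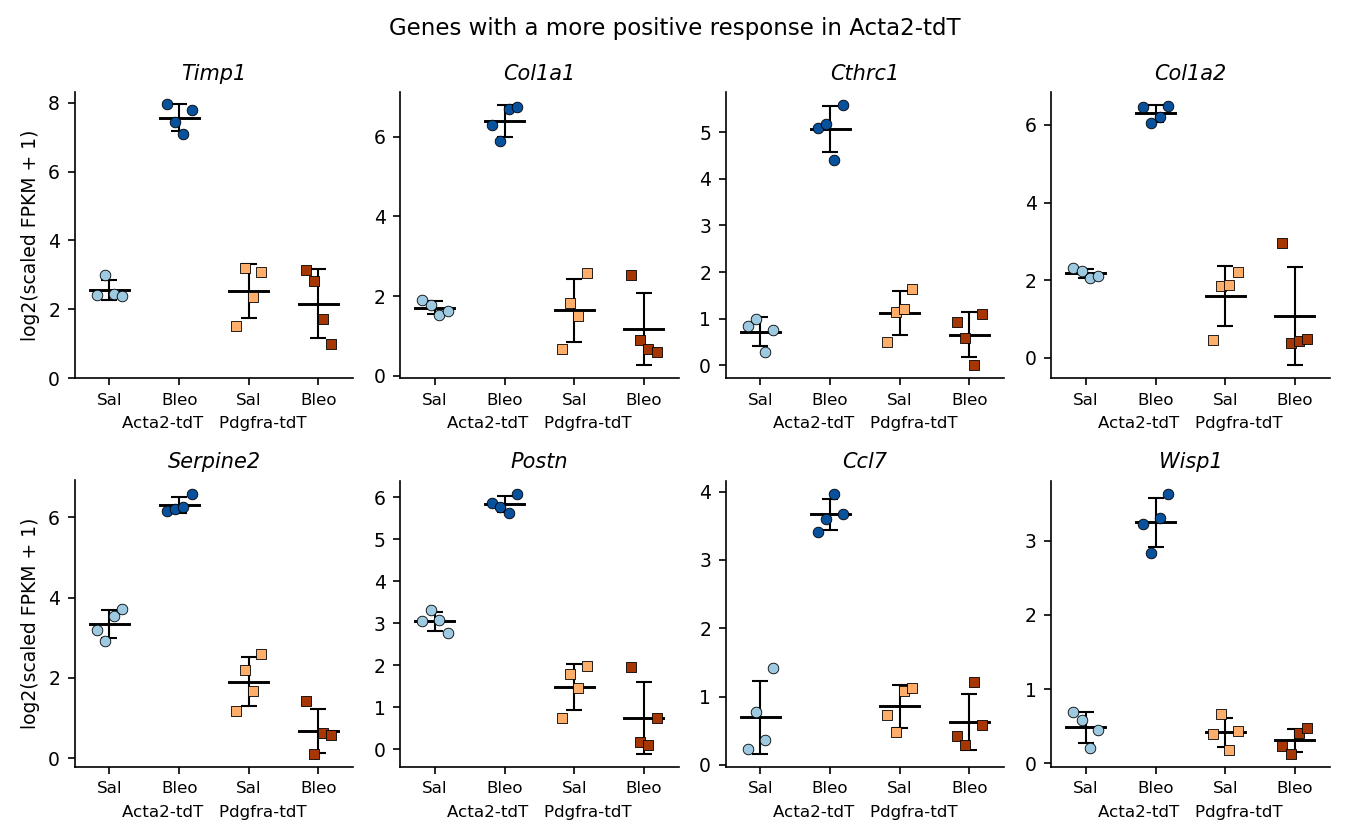
Values of 8 genes in each mouse as log2(scaled FPKM + 1), with 4 mice in a group (circles Acta2-tdT, squares Pdgfra-tdT, pale saline, dark bleomycin), the group mean as a line and the SD as bars. In each panel all 4 Acta2-tdT bleomycin mice lie above the other 12, and the Pdgfra-tdT groups overlap. Wisp1 had a scaled FPKM of at most 0.619 in the other mice and met the filter only with the Acta2-tdT bleomycin mice.

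Promoter sequences are shown for genes of each pattern, so that the response groups can be read beside the letters next to their start sites. They are the 250 bases before the start in RefSeq (GRCm38.p6), 5′ to 3′ on the gene's strand, with matches of 6 searched motifs on either strand in capitals. The letters TATAAA, as in a TATA box, were searched over all 250 bases, so a match at any distance counts and need not be such a box. The box bound by the factor NF-Y was written CCAAT. Sites for AP-1 were searched as TGANTCA, and a core bound by PU.1 and other ETS factors as GAGGAAG. An E-box was searched as CACGTG, and the CArG box, bound by serum response factor, as a pair of C, 6 bases that are each A or T, and a pair of G. Col1a2 at chr6:4505368-4505617 and Timp1 at chrX:20869916-20870165, both on the plus strand, stand for the rises in Acta2-tdT alone. Spp1 at chr5:104434861-104435110 (plus, the first of 2 listed starts), Trem2 at chr17:48346151-48346400 (plus) and Cd68 at chr11:69666171-69666420 (minus) stand for the rises in both lines. Actc1 at chr2:114052876-114053125 (minus) stands for the falls in Acta2-tdT.
Col1a2: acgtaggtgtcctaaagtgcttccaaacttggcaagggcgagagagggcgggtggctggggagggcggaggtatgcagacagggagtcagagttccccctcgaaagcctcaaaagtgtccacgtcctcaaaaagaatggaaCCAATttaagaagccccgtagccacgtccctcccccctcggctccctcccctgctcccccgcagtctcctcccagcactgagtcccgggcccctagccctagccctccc
Timp1: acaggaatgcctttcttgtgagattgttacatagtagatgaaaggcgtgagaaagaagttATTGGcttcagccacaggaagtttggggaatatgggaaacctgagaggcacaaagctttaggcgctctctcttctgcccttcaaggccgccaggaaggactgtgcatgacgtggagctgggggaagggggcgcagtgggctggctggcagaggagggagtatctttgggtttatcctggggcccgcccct
Spp1: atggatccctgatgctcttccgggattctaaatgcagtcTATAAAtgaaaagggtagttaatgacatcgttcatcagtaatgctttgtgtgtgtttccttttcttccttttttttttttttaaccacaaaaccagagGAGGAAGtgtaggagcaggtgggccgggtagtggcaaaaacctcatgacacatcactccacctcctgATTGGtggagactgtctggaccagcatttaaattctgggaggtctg
Trem2: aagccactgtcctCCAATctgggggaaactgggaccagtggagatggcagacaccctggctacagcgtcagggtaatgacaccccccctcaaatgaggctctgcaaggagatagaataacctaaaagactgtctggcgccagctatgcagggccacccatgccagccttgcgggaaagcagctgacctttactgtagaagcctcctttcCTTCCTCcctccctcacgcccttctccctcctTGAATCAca
Cd68: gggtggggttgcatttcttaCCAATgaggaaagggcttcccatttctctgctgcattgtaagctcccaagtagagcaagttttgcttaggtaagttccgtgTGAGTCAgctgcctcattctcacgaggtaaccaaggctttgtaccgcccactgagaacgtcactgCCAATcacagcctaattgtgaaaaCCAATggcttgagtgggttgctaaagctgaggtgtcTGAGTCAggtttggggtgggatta
Actc1: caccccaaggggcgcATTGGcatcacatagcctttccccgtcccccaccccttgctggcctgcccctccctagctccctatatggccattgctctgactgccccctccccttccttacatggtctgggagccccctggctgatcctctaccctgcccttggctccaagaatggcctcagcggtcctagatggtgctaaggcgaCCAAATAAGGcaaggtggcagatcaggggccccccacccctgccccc
All 6 printed promoters held CCAAT, with 3 matches in Cd68 and 1 in each of the others, so this box does not set the patterns apart. Cd68 also held 2 matches of TGANTCA, and Trem2 held GAGGAAG and TGANTCA. Spp1 held GAGGAAG, and TATAAA 206 to 211 bases before its start. Actc1 held a CArG box 38 to 47 bases before its start. Of all 32851 promoters in the table, 33.8% held CCAAT, 6.75% TGANTCA, 10.6% GAGGAAG, 12.4% TATAAA, 6.02% CACGTG and 1.47% a CArG box. Promoters were listed for 137 of the 202 genes higher in Acta2-tdT, and 32.4% of their 170 promoters held CCAAT and 8.82% GAGGAAG. They were listed for 26 of the 34 genes higher in both lines, and of these 30 promoters 33.3% held GAGGAAG, 43.3% CCAAT and 16.7% TGANTCA. For the lower genes, 75 of 121 were listed, and 26.7% of 86 promoters held TATAAA. These are counts of letters only, with no test.

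The matrix lists rose in Acta2-tdT. Of 29 tested genes of collagens and fibre assembly, 27 rose in Acta2-tdT, 0 were called in Pdgfra-tdT by limma (0 also at an unadjusted p under 0.05), and 23 had a difference called higher, against 2.81% of all genes. Of the 29, 15 met the filter only with the Acta2-tdT bleomycin mice, and among the other 14, 13 rose and 10 had a difference called higher. Their median effect was 2.14 in Acta2-tdT and -0.11 in Pdgfra-tdT, beside 0.17 and 0.11 over all tested genes. The summed level of the 31 listed genes was 152 to 182 in Acta2-tdT saline, 1076 to 1583 in Acta2-tdT bleomycin, 28.4 to 167 in Pdgfra-tdT saline and 22.6 to 429 in Pdgfra-tdT bleomycin. The member with the smallest adjusted p was Col5a3, a chain of type V collagen, which nucleates collagen fibrils. Its mean was 0.259 ± 0.140 in Acta2-tdT saline and 4.58 ± 0.713 in Acta2-tdT bleomycin, with a difference of 2.26 ± 0.24 (adjusted p = 1.88e-05). Col5a1, another chain of the same collagen, differed by 2.85 ± 0.32 (adjusted p = 2.31e-05). Sparc, a collagen-binding glycoprotein with the highest level of the list, was an exception. It rose in Acta2-tdT by 2.80 ± 0.76 (adjusted p = 0.00853), yet was 15.0, 28.2, 105 and 48.4 in Pdgfra-tdT saline and 345, 120.0, 33.0 and 12.7 in Pdgfra-tdT bleomycin, and the difference of 2.06 ± 1.08 (adjusted p = 0.305) did not pass, although it did at 2.72 (adjusted p = 0.0369) without the 4 libraries with the fewest genes. Pdgfra-tdT saline 3 and bleomycin 5 were the highest of their groups.

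Of 18 tested injury matrix and matricellular genes, 17 rose in Acta2-tdT, 1 (Spp1) rose in Pdgfra-tdT, and 12 had a difference called higher. The shares over all genes were 18%, 0.904% and 2.81%. Among the 13 that met the filter on the other groups, 12 rose and 9 had a difference called higher. Thbs2, a thrombospondin that binds proteases and growth factors, went from 0.629 ± 0.238 to 9.97 ± 1.31 in Acta2-tdT and differed by 3.03 ± 0.30 (adjusted p = 1.34e-05). Tnc, which encodes tenascin C, went from 0.580 ± 0.0486 to 9.87 ± 1.84 and differed by 3.09 ± 0.32 (adjusted p = 1.34e-05). In both genes the 4 Acta2-tdT bleomycin mice lay above the other 12. Those 12 had at most 0.969 of Thbs2 and 0.962 of Tnc, so both genes met the filter only with the Acta2-tdT bleomycin mice. The filter thus fixed this separation. Of 20 listed basement membrane genes only 9 were tested, of which 7 rose and 1 fell in Acta2-tdT and 3 (Lamb1, Lamc1 and Hspg2) had a difference called higher. When the sum left out predicted and receptor genes, 1 rose, 1 fell and 0 had a called difference, and when it left out the 100 most abundant genes 1 had one. All 3 met the filter only with the Acta2-tdT bleomycin mice. When the 4 libraries with the fewest genes were left out, 26 of the 29 collagen genes and 15 of the 18 injury genes had a difference called higher, with 1 Pdgfra-tdT saline mouse (number 3) left whose spread was taken from the other groups.

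Growth factor pathways were read next. Of 36 listed TGF-beta and BMP genes 21 were tested, of which 11 rose and 2 fell in Acta2-tdT, beside 18% and 22.5% of all genes. In Pdgfra-tdT 0 were called by limma (1 at an unadjusted p under 0.05). The difference was higher for 8 and lower for 1, beside 2.81% and 1.68% of all genes. Of the 8, 6 met the filter only with the Acta2-tdT bleomycin mice. Only 3 were higher when the scaling sum left out predicted and receptor genes. Grem1, a secreted antagonist of bone morphogenetic proteins, went from 0.193 ± 0.104 to 3.28 ± 1.13 in Acta2-tdT and differed by 1.98 ± 0.27 (adjusted p = 0.000212). Ltbp1, which holds latent TGF-beta in the matrix, differed by 1.91 ± 0.32 (adjusted p = 0.00131). Inhba, the activin A subunit, went from 1.53 ± 0.961 to 10.5 ± 3.31 and differed by 2.53 ± 0.45 (adjusted p = 0.00201). Id1 and Id3, targets of BMP signalling and the most abundant of the list, had no called effect, and Id1 was 1.55, 0.395, 67.7 and 1.01 in Pdgfra-tdT saline and 53.6, 5.88, 5.40 and 1.28 in Pdgfra-tdT bleomycin. Pdgfra-tdT saline 3 and bleomycin 5 stood apart in it, as they did for the endothelial markers.

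Of 36 listed Wnt genes 26 were below the filter, and 6 of the 10 tested met it only with the Acta2-tdT bleomycin mice, so the counts over the tested genes are partly fixed by the change itself. Of these 10, 6 rose and 1 fell in Acta2-tdT and 4 (Wisp1, Sfrp1, Dkk3 and Fzd1) had a difference called higher, against 2 of 13 tested when the sum left out predicted and receptor genes. Over all genes 18% rose, 22.5% fell and 2.81% had a difference called higher. Wisp1, a matricellular Wnt target, differed by 2.87 ± 0.31 (adjusted p = 2.31e-05) and Sfrp1, a secreted Wnt inhibitor, by 2.08 ± 0.30 (adjusted p = 0.000286). Both were under 1 in every saline mouse and in every Pdgfra-tdT mouse. Dkk3, a secreted glycoprotein of the Dickkopf family, differed by 1.58 ± 0.37 (adjusted p = 0.0165), and that call was lost with a median of ratios, quantile normalization, the receptor background subtracted, the replicate number as a block or a sum without predicted and receptor genes. Tcf7l2, a Wnt transcription factor, had effects of -0.16 ± 0.35 (adjusted p = 0.716) and 0.58 ± 0.35 (adjusted p = 0.438). Among 15 tested of 29 listed PDGF, FGF and IGF genes, 4 rose and 3 fell in Acta2-tdT, and the difference was higher for 3 (Igfbp2, Fgfr1 and Pdgfra) and lower for 1 (Igf2), beside 18% rises and 22.5% falls over all genes. Igfbp2 and Fgfr1 met the filter only with the Acta2-tdT bleomycin mice and Igf2 only with the Acta2-tdT saline mice, which leaves 1 higher call among the 13 genes that met it without the former. Fgfr1, a fibroblast growth factor receptor, had Acta2-tdT means of 0.808 ± 0.0804 and 2.89 ± 0.415, and its difference was 1.35 ± 0.25 (adjusted p = 0.00348). When the sum left out predicted and receptor genes, the adjusted p of Fgfr1 was 0.0557 and 1 of 19 tested genes of this list had a difference called higher. The most abundant members, Igfbp7 and Igfbp6, were not called in either line, with differences of 1.79 ± 1.05 (adjusted p = 0.367) and 1.16 ± 0.87 (adjusted p = 0.489).

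Of 44 listed cell cycle genes 26 were tested, of which 17 rose and 1 fell in Acta2-tdT, beside 18% and 22.5% of all genes. In Pdgfra-tdT 0 were called by limma (1 at an unadjusted p under 0.05). The difference was called higher for 6, beside 2.81% of all genes. All 6 were among the 11 that met the filter only with the Acta2-tdT bleomycin mice. When the sum left out predicted and receptor genes, 2 of 29 tested had a difference called higher. Cdc20, an activator of the anaphase-promoting complex, was 0.187, 0.109, 0.158 and 0.119 in Acta2-tdT saline and 3.96, 2.36, 3.76 and 4.60 in Acta2-tdT bleomycin. The Acta2-tdT groups did not overlap, and the difference was 1.85 ± 0.42 (adjusted p = 0.0124). Mcm6, a subunit of the replicative helicase, differed by 1.37 ± 0.30 (adjusted p = 0.0111). Its call was lost with a median of ratios and when the sum left out predicted and receptor genes (adjusted p = 0.110). Stmn1 and Birc5, the most abundant of the list, rose in Acta2-tdT by 2.01 ± 0.60 (adjusted p = 0.0136) and 1.42 ± 0.40 (adjusted p = 0.0109), with no called difference. Without the 4 libraries with the fewest genes, the difference went from 1.12 to 2.25 for Stmn1 and from 1.48 to 0.48 for Birc5. Of 25 tested ER chaperone and unfolded protein genes, 12 (beside 18% of all genes) rose in Acta2-tdT and 1 (beside 2.81%) had a difference called higher. This was Asns, asparagine synthetase, which met the filter only with the Acta2-tdT bleomycin mice. It was 0.0662, 0.409, 0.140 and 0.228 in Acta2-tdT saline and 3.41, 2.16, 3.01 and 2.88 in Acta2-tdT bleomycin and differed by 1.73 ± 0.26 (adjusted p = 0.000538). P4hb, which folds procollagen, rose in Acta2-tdT by 2.73 ± 0.70 (adjusted p = 0.00613), and Hsp90b1, an ER chaperone, had a difference of 1.10 ± 0.98 (adjusted p = 0.572). Without the 4 libraries with the fewest genes, the differences were 3.24 for P4hb and 3.15 for Hsp90b1. The only Pdgfra-tdT saline mouse left in that fit is number 3. Its Hsp90b1 value, as log2(scaled FPKM + 1), was 5.10, against 1.55 to 1.81 in the other saline mice of that line.

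Of 22 epithelial markers 10 were tested, and 2 of them, both keratins, had a difference called higher, beside 2.81% of all genes. The differences of 5 of the 10 were above 0. In Acta2-tdT 3 of the 10 rose, beside 18% of all genes. Krt18 and Krt8, the paired keratins of simple epithelia, rose there by 1.44 ± 0.25 (adjusted p = 0.000498) and 1.21 ± 0.28 (adjusted p = 0.00376), and their differences were 1.82 ± 0.36 (adjusted p = 0.00497) and 1.70 ± 0.40 (adjusted p = 0.0181). Krt18 met the filter only with the Acta2-tdT bleomycin mice. The summed level of the 22 epithelial markers was 68.2 to 814 with saline, against 48.3 to 253 with bleomycin, in the Acta2 line. Scgb1a1, the secretoglobin of club cells, was 84.6, 59.0, 776 and 121 and 234, 124, 30.0 and 77.6 in these mice, and Sftpc, a surfactant protein, was 3.85, 0.849, 15.7 and 5.96 and 1.88, 47.0, 2.25 and 18.02. The summed epithelial level and these abundant markers overlapped between the groups, whereas the keratins rose. The calls of both keratins were lost when the sum left out predicted and receptor genes, that of Krt18 also with a median of ratios and that of Krt8 also with the replicate number as a block.

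The genes with a lower response in Acta2-tdT included 3 kinds. The first were genes of smooth muscle and pericytes, which were present in Acta2-tdT saline, fell with bleomycin and were near the floor in the Pdgfra line. Tcap (chr11:98383811-98384953), a small sarcomere protein also named telethonin, was 21.0, 11.4, 12.9 and 29.0 in Acta2-tdT saline, 0.273, 0.362, 0.365 and 0.741 in Acta2-tdT bleomycin, 0.550, 0, 0 and 0.337 in Pdgfra-tdT saline and 0, 0, 0.0831 and 0 in Pdgfra-tdT bleomycin. The effect was -3.69 ± 0.27 (adjusted p = 9.4e-08) in Acta2-tdT, and the difference was -3.45 ± 0.39 (adjusted p = 2.31e-05). Outside Acta2-tdT saline Tcap was at most 0.741, so it met the filter only with those mice, which fixes its pattern in part. Mustn1, a small nuclear protein of muscle and bone, had Acta2-tdT means of 106 ± 25.8 and 14.5 ± 5.35 and differed by -3.09 ± 0.71 (adjusted p = 0.0151). Actc1, the cardiac alpha-actin whose promoter is given above, was 41.1, 61.1, 60.8 and 96.8 in Acta2-tdT saline and 2.28, 17.7, 3.02 and 8.66 in Acta2-tdT bleomycin, and differed by -3.05 ± 0.68 (adjusted p = 0.0113). On unscaled FPKM the calls of Mustn1 and Actc1 were lost, with differences of -0.56 and -0.63 and Acta2-tdT effects of 0.077 (adjusted p = 0.921) and -0.43 (adjusted p = 0.502). The Pdgfra-tdT saline mice had at most 4.28 of any of these RNAs, so a fall of the same size could not have been seen there.

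The contractile genes did not move as a block. Of 22 tested, 2 rose and 6 fell in Acta2-tdT, 0 were called in Pdgfra-tdT by limma (4 at an unadjusted p under 0.05), and the difference was lower for 4 and higher for 1. Of all genes, 18% rose and 22.5% fell. On unscaled FPKM, where 25 were tested, 19 rose and 0 fell, and the difference was higher for 17 and lower for 0. Myh11, the smooth muscle myosin heavy chain, had Acta2-tdT means of 10.9 ± 0.856 and 2.35 ± 0.696 and differed by -1.77 ± 0.34 (adjusted p = 0.00407). Ppp1r14a, an inhibitor of myosin phosphatase, differed by -2.14 ± 0.37 (adjusted p = 0.00161) and Lmod1, an actin nucleator of smooth muscle, by -1.37 ± 0.30 (adjusted p = 0.0109). The call of Lmod1 was lost with a median of ratios, a pseudocount of 0.1 and a sum without predicted and receptor genes. Against these falls Des, the intermediate filament desmin, was 10.3, 11.3, 11.0 and 13.8 in Acta2-tdT saline and 35.6, 42.4, 44.1 and 61.9 in Acta2-tdT bleomycin, and its difference was 2.56 ± 0.51 (adjusted p = 0.00578), a call lost with quantile normalization. Acta2 itself and Myl6, a myosin light chain and the other most abundant member, had no called effect in either line here. Both rose in Acta2-tdT on unscaled FPKM, by 3.13 (adjusted p = 0.00122) and 2.85 (adjusted p = 0.00749). On unscaled FPKM the differences of Myh11, Ppp1r14a and Lmod1 turned to 0.63, 0.12 and 0.47, so their falls are relative to the rest of the RNA.

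Pericyte markers fell more evenly. Of 10 tested, 6 fell in Acta2-tdT, 0 rose, and 5 had a difference called lower, against 1.68% of all genes. On unscaled FPKM, where 12 were tested, 7 rose and 1 fell, so these falls too are relative to the rest of the RNA. Of the 10 tested, 5 met the filter only with the Acta2-tdT saline mice, and these held 3 of the 5 called. A sum without predicted and receptor genes left 3 of 11 tested with a difference called lower. The summed level of the 14 listed markers was 55.3 to 60.7 in Acta2-tdT saline, 10.3 to 16.6 in Acta2-tdT bleomycin, 5.82 to 9.20 in Pdgfra-tdT saline and 4.59 to 6.75 in Pdgfra-tdT bleomycin. Higd1b, a mitochondrial protein enriched in pericytes, was 21.2, 20.5, 13.5 and 8.96 in Acta2-tdT saline and 3.06, 1.43, 0.399 and 1.43 in Acta2-tdT bleomycin, and differed by -3.16 ± 0.52 (adjusted p = 0.00126). On unscaled FPKM that call was lost at -0.89, with an Acta2-tdT effect of -0.52 (adjusted p = 0.261). Cox4i2, a cytochrome oxidase isoform of hypoxia-sensing vascular cells, was 9.94, 14.0, 13.4 and 14.5 and 0.550, 1.28, 0.471 and 0.497 in these mice and differed by -3.04 ± 0.34 (adjusted p = 2.31e-05). No Acta2-tdT bleomycin mouse reached a saline mouse in either gene. Gucy1a3 and Gucy1b3, the subunits of the nitric oxide receptor, differed by -1.81 ± 0.35 (adjusted p = 0.00428) and -1.52 ± 0.23 (adjusted p = 0.000455). Both calls were lost on unscaled FPKM and with a pseudocount of 0.1, and that of Gucy1a3 also with a median of ratios and a sum without predicted and receptor genes. Ednra, the endothelin A receptor, differed by -1.10 ± 0.29 (adjusted p = 0.033). The call of Ednra was lost without any one of 10 libraries, and its difference turned to 1.12 on unscaled FPKM.

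**Figure D3:**
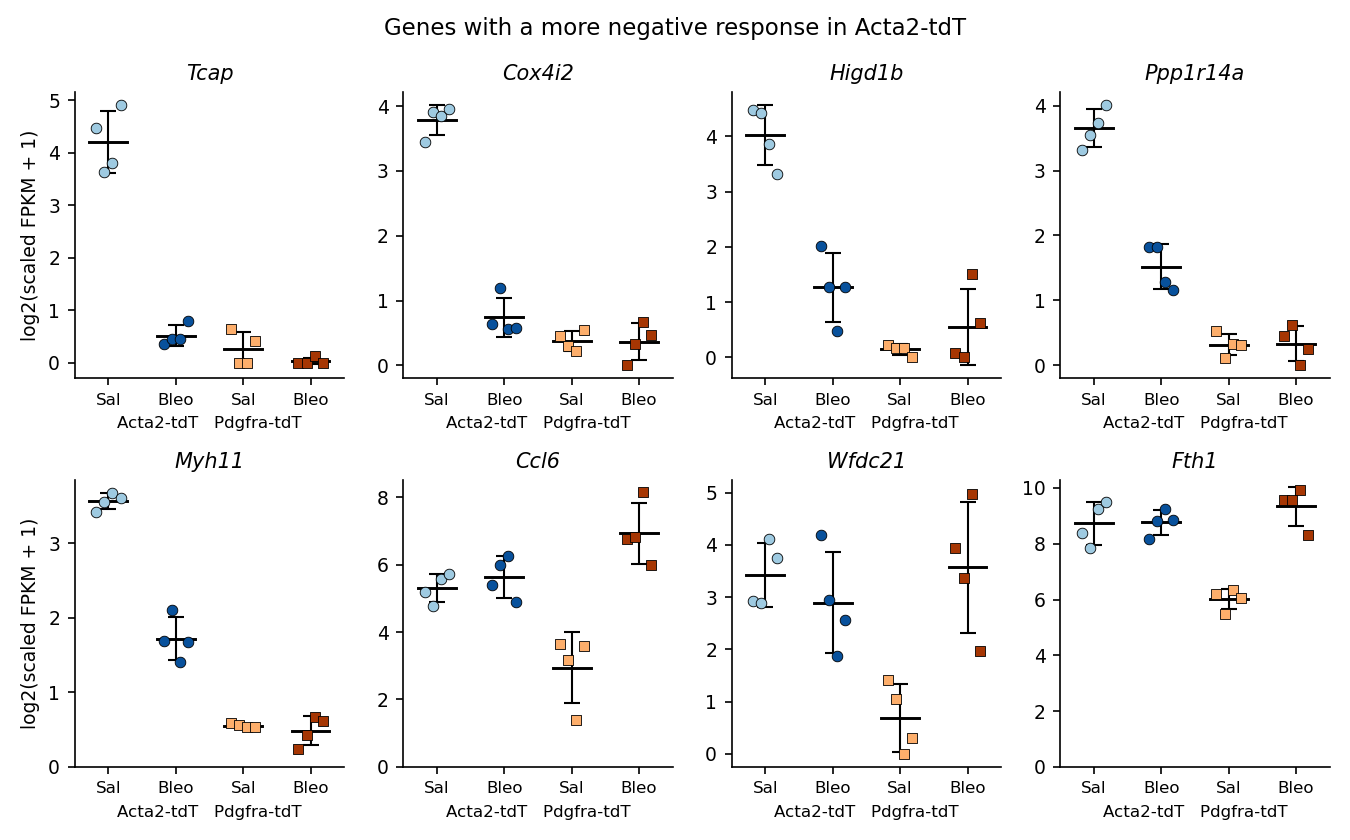
Values of 8 genes in each mouse as log2(scaled FPKM + 1), with 4 mice in a group (circles Acta2-tdT, squares Pdgfra-tdT, pale saline, dark bleomycin), the group mean as a line and the SD as bars. Tcap, Cox4i2, Higd1b, Ppp1r14a and Myh11 were lower in every Acta2-tdT bleomycin mouse than in every Acta2-tdT saline mouse and low in all Pdgfra-tdT mice, whereas Ccl6, Wfdc21 and Fth1 were higher in the Pdgfra-tdT bleomycin mice. Tcap and Cox4i2 met the filter only with the Acta2-tdT saline mice.

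The second kind rose in Pdgfra-tdT and not in Acta2-tdT, and held Ccl6, Fth1, Wfdc21, Tyrobp, Cd2, Atp6v0d2 and Plet1. Ccl6 (chr11:83587882-83593087), a chemokine of macrophages and neutrophils, was 35.4, 26.3, 46.6 and 51.5 in Acta2-tdT saline, 40.8, 62.7, 76.1 and 28.6 in Acta2-tdT bleomycin, 11.6, 8.001, 1.62 and 10.9 in Pdgfra-tdT saline and 107, 111, 285 and 62.3 in Pdgfra-tdT bleomycin. In the Pdgfra line the groups did not overlap, and in the Acta2 line they did. The effect was 3.98 ± 0.61 (adjusted p = 0.00302) in Pdgfra-tdT and 0.32 ± 0.61 (adjusted p = 0.683) in Acta2-tdT, and the difference was -3.65 ± 0.86 (adjusted p = 0.0173). It was lost without Acta2-tdT bleomycin 8 (adjusted p = 0.0542) and under 4 other settings. Fth1 (chr19:9982703-9985092), the ferritin heavy chain that stores iron, was 72.6, 43.9, 79.9 and 65.1 in Pdgfra-tdT saline and 751, 759, 965 and 319 in Pdgfra-tdT bleomycin, where it reached the level of the Acta2 line (means of 471 ± 231 and 448 ± 129). Its difference was -3.30 ± 0.63 (adjusted p = 0.00407), and reads of such a gene can be split with its processed pseudogenes. On unscaled FPKM that call was lost at -0.82, and Fth1 and Ccl6 rose in the Acta2 line as well, by 3.02 (adjusted p = 0.000535) and 3.28 (adjusted p = 0.000477), so these patterns too are relative to the rest of the RNA. Wfdc21, a secreted protein of the whey acidic protein family, differed by -3.41 ± 0.84 (adjusted p = 0.0242), a call lost without any one of 5 libraries. Tyrobp, the signalling adaptor of many myeloid receptors, differed by -3.03 ± 0.85 (adjusted p = 0.047), and its call was lost without any one of 12 libraries and under 7 of 14 other settings. The summed macrophage level was also higher in the Pdgfra-tdT bleomycin mice, at 835 to 2518 against 55.1 to 222 with saline, and its part in these rises was not tested.

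Cd2 (chr3:101275899-101287939), an adhesion receptor of T and natural killer cells, was the 1 gene (0.0139%) called in both lines in opposite directions. Other settings gave from 0 such genes (among them unscaled FPKM, a median of ratios and quantile normalization) to 77 with sample quality weights and 92 without the 4 libraries with the fewest genes. It was 1.06, 1.17, 2.16 and 0.856 in Acta2-tdT saline, 0, 0.0108, 0.138 and 0.280 in Acta2-tdT bleomycin, 1.38, 1.73, 0.0426 and 0.861 in Pdgfra-tdT saline and 2.84, 5.67, 4.09 and 3.48 in Pdgfra-tdT bleomycin. The groups did not overlap in either line, and the effects were -1.04 ± 0.29 (adjusted p = 0.00954) and 1.38 ± 0.29 (adjusted p = 0.0257). On unscaled FPKM neither effect was called, at -0.32 (adjusted p = 0.457) and 1.75 (adjusted p = 0.168). The difference of -2.42 ± 0.41 (adjusted p = 0.00137) was lost with a median of ratios and when the sum left out predicted and receptor genes. Of 10 tested lymphocyte markers, 7 fell in Acta2-tdT, beside 22.5% of all genes, and Cd2 was the 1 called higher in Pdgfra-tdT. With a sum that left out predicted and receptor genes 3 of 11 fell in Acta2-tdT and 0 were called in Pdgfra-tdT, and on unscaled FPKM 1 of 8 fell. Thy1, which T cells share with fibroblasts, had a difference of 0.26 ± 0.86 (adjusted p = 0.902).

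The third kind were the receptor genes of the background gauge. Of the 121 genes with a lower response, 19 were among the 420 receptor genes tested, of which 373 fell in Acta2-tdT. Another 20 were among the 224 predicted genes tested. Over all tested genes 1.68% had a lower difference and 22.5% fell in Acta2-tdT. Olfr46 (chr7:140601269-140617678) was 112, 131, 100.2 and 65.5 in Acta2-tdT saline, 3.22, 8.60, 1.35 and 0.841 in Acta2-tdT bleomycin, 169, 213, 59.1 and 182 in Pdgfra-tdT saline and 19.6, 75.9, 120.2 and 188 in Pdgfra-tdT bleomycin. It was low in every Acta2-tdT bleomycin mouse and lower in Pdgfra-tdT bleomycin 5 than in the other mice of that group, and the background gauge was lowest in the same mice. Olfr639, and Grk4, a G protein-coupled receptor kinase that is not part of the gauge, had the same form, with differences of -3.36 ± 0.88 (adjusted p = 0.033) and -3.15 ± 0.81 (adjusted p = 0.0298). The calls of Olfr46, Olfr639 and Grk4 were each lost under 7 of 14 other settings, among them a median of ratios and quantile normalization, and without any one of 6, 9 and 9 libraries. Receptor genes also share sequence with their paralogs, so their values are uncertain.

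The genes that rose in both lines numbered 34 (0.473% of tested genes), and 2 (0.0278%) fell in both, the receptor genes Olfr1260 and Olfr618. These shared calls made up 52.2% of the calls in Pdgfra-tdT and 1.23% of those in Acta2-tdT. Of the 34, 7 stood on the list of macrophage markers, 6 on the list of lysosomal proteases and inhibitors and 3 on the list of lipid genes, and 14 (41.2%) stood on at least one of these, which together held 57 (0.793%) of all tested genes. The remaining 20 stood on none of them. No enrichment was tested. For 33 of the 34 the effect was larger in Pdgfra-tdT, and Spp1 was the exception. With 69 calls in Pdgfra-tdT against 2916 in Acta2-tdT, the adjusted threshold asked for larger effects in Pdgfra-tdT. The choice of the 34 thus favours this order, which does not show a stronger response in Pdgfra-tdT. The difference of effects passed for 0 of the 34 by limma (1 at an unadjusted p under 0.05). That count depended on the libraries, since the differences of Acp5, Ctss and Lyz2, all among the 34, were -2.36 (adjusted p = 0.0165), -2.68 (adjusted p = 0.0298) and -4.29 (adjusted p = 0.00219) without the 4 libraries with the fewest genes. The effects ran from 0.97 to 5.88 in Acta2-tdT and from 1.51 to 4.17 in Pdgfra-tdT. In 28 the groups overlapped in neither line, beside 57.6% of all genes without overlap in Acta2-tdT and 3.62% in Pdgfra-tdT. The 34 were picked by their effects in the same mice, so this count follows in part from that choice. Besides the genes described next, they included the cathepsin genes Ctsk, Ctsz and Ctsh, the lysosomal hydrolases Hexa and Lipa, the leukocyte integrin Itgb2 and the chemokine Ccl9, named here after their values were seen.

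Spp1 (chr5:104435118-104441050), which encodes the secreted glycoprotein osteopontin, was 16.5, 20.1, 11.9 and 12.4 in Acta2-tdT saline, 1116, 671, 963 and 1053 in Acta2-tdT bleomycin, 7.55, 50.1, 21.0 and 73.1 in Pdgfra-tdT saline and 378, 535, 1612 and 127 in Pdgfra-tdT bleomycin. Every bleomycin mouse was above every saline mouse of its line. The effect was 5.88 ± 0.70 (adjusted p = 1.14e-05) in Acta2-tdT and 3.96 ± 0.70 (adjusted p = 0.00787) in Pdgfra-tdT, and the difference of 1.91 ± 0.98 (adjusted p = 0.296) did not pass. Ctss, a lysosomal cysteine protease of antigen-presenting cells, was 9.998, 6.44, 6.20 and 18.9 in Acta2-tdT saline, 45.4, 81.6, 153 and 62.0 in Acta2-tdT bleomycin, 7.87, 4.41, 2.79 and 11.2 in Pdgfra-tdT saline and 96.1, 229, 270.2 and 35.2 in Pdgfra-tdT bleomycin. Its effects were 2.91 ± 0.66 (adjusted p = 0.00307) and 4.15 ± 0.66 (adjusted p = 0.00341), with a difference of -1.24 ± 0.93 (adjusted p = 0.49). Ctsd, the lysosomal aspartic protease cathepsin D, had effects of 2.29 ± 0.61 (adjusted p = 0.00802) and 3.82 ± 0.61 (adjusted p = 0.00341). Pdgfra-tdT bleomycin 8 was the lowest of its group in both proteases and still above the saline mice.

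Lpl, the lipoprotein lipase, rose by nearly the same amount in both lines. It was 1.36, 1.94, 2.25 and 2.201 in Acta2-tdT saline, 12.5, 11.9, 27.6 and 13.6 in Acta2-tdT bleomycin, 1.403, 1.42, 3.503 and 2.95 in Pdgfra-tdT saline and 22.0, 24.6, 27.3 and 5.29 in Pdgfra-tdT bleomycin. Its effects were 2.49 ± 0.48 (adjusted p = 0.00093) and 2.49 ± 0.48 (adjusted p = 0.015), and the interval of the difference was -1.42 to 1.42, so a difference of up to that size could not be seen here. On unscaled FPKM the difference was 2.47 and passed. Pld3, a lysosomal nuclease of the phospholipase D family, had effects of 2.44 ± 0.43 (adjusted p = 0.000545) and 2.81 ± 0.43 (adjusted p = 0.00302). Mmp12, the macrophage elastase, had effects of 2.22 ± 0.64 (adjusted p = 0.0122) and 2.74 ± 0.64 (adjusted p = 0.045), and Pdgfra-tdT bleomycin 8 at 1.34 lay within the saline range. The interval of its difference was -2.43 to 1.38.

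Of 23 tested macrophage markers, 12 rose in Acta2-tdT and 11 in Pdgfra-tdT, beside 18% and 0.904% of all genes. The difference was lower for 1, Tyrobp, beside 1.68% of all genes. When the sum left out predicted and receptor genes, 2 of 25 tested rose in Acta2-tdT and 3 in Pdgfra-tdT, with 0 called differences, and on unscaled FPKM 27 and 2 of 28 rose. Lyz2, the lysozyme of myeloid cells and the most abundant marker, was 90.1, 49.6, 113 and 148 in Acta2-tdT saline, 151, 423, 448 and 215 in Acta2-tdT bleomycin, 114, 51.9, 19.96 and 79.9 in Pdgfra-tdT saline and 1019, 1504, 1195 and 590.1 in Pdgfra-tdT bleomycin. Its effects were 1.58 ± 0.55 (adjusted p = 0.0291) and 4.17 ± 0.55 (adjusted p = 0.00156), and the difference of -2.59 ± 0.78 (adjusted p = 0.0651) fell just short of the threshold and passed without any one of 3 libraries. Without the 4 libraries with the fewest genes, 9 of the 23 markers had a difference called lower. C1qb, a chain of complement component C1q, had effects of 2.08 ± 0.69 (adjusted p = 0.0235) and 3.20 ± 0.69 (adjusted p = 0.0299). Cd68, a lysosomal glycoprotein of macrophages, had effects of 2.02 ± 0.61 (adjusted p = 0.0148) and 3.01 ± 0.61 (adjusted p = 0.0238). Trem2, a lipid-sensing receptor of macrophages chosen after its values were seen, had effects of 2.13 ± 0.50 (adjusted p = 0.00358) and 2.80 ± 0.50 (adjusted p = 0.00812). Acp5, an acid phosphatase of macrophages and osteoclasts named in the same way, had effects of 1.95 ± 0.46 (adjusted p = 0.00397) and 3.29 ± 0.46 (adjusted p = 0.00156). The summed level of the macrophage markers was 356 to 735 in Acta2-tdT saline, 650 to 1725 in Acta2-tdT bleomycin, 55.1 to 222 in Pdgfra-tdT saline and 835 to 2518 in Pdgfra-tdT bleomycin. Of the 34 shared rises, 7 are themselves on this macrophage list, so the list and the shared rises are not independent. The part of the macrophage markers in the other shared rises was not tested.

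**Figure D4:**
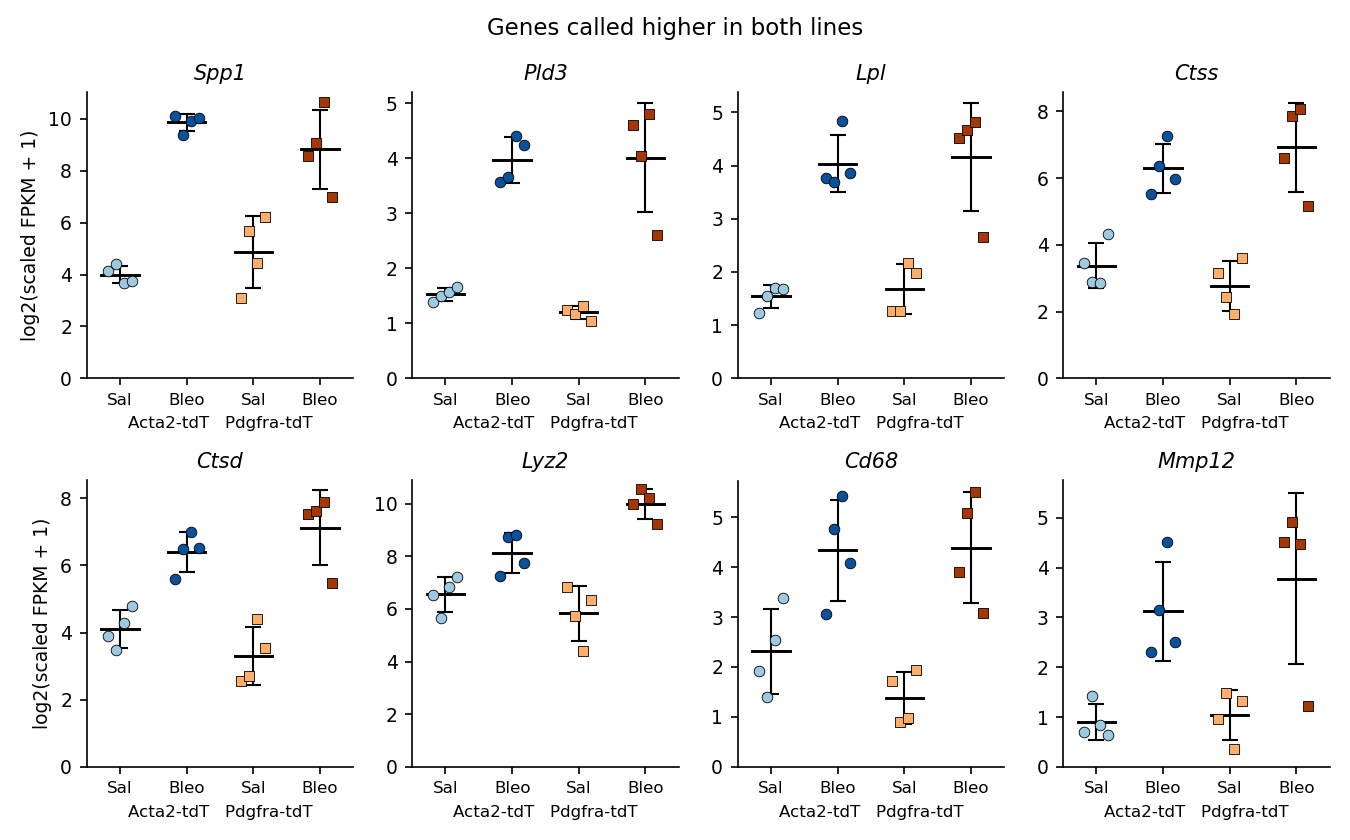
Values of 8 genes in each mouse as log2(scaled FPKM + 1), with 4 mice in a group (circles Acta2-tdT, squares Pdgfra-tdT, pale saline, dark bleomycin), the group mean as a line and the SD as bars. All 8 genes were called higher with bleomycin in both lines, and Pdgfra-tdT bleomycin 8 is often the lowest of its group.

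All 20 lysosomal protease and inhibitor genes were tested, and 16 rose in Acta2-tdT and 6 in Pdgfra-tdT, beside 18% and 0.904% of all genes. The difference passed for 0 of the 20 by limma (0 at an unadjusted p under 0.05). When the sum left out predicted and receptor genes 7 and 4 rose, and on unscaled FPKM 20 and 1 rose and the difference was higher for 5. Their median effects were 1.66 and 2.08. Cst3, the inhibitor cystatin C and the most abundant of the list, was not called in either line, with effects of -0.18 ± 0.67 (adjusted p = 0.835) and 1.36 ± 0.67 (adjusted p = 0.377). Of 17 tested cholesterol and lipid genes, 11 rose in Acta2-tdT and 4 in Pdgfra-tdT, beside 18% and 0.904% of all genes. When the sum left out predicted and receptor genes, 3 and 1 of 16 tested rose. The difference was higher for 5 of the 17 and lower for 2 without the 4 libraries with the fewest genes. Apoe, the main apolipoprotein of macrophages, had effects of 1.29 ± 0.67 (adjusted p = 0.126) and 3.03 ± 0.67 (adjusted p = 0.0324), with a difference of -1.74 ± 0.95 (adjusted p = 0.326). Which of its effects was called depended on the setting. It was the Pdgfra-tdT effect here, the Acta2-tdT effect on unscaled FPKM (4.28, adjusted p = 0.000122), both without the 4 libraries with the fewest genes (adjusted p = 0.0474 and 0.0264), and not the Pdgfra-tdT effect when the sum left out predicted and receptor genes (adjusted p = 0.103). Fabp4, a fatty acid-binding protein, was called in neither line and had a difference of -1.52 ± 0.42 (adjusted p = 0.0429), lost without any one of 13 libraries and at 0.017 on unscaled FPKM. Plin2, which coats lipid droplets, rose in Acta2-tdT by 1.57 ± 0.51 (adjusted p = 0.0206), with 2.04 ± 0.51 (adjusted p = 0.0581) in Pdgfra-tdT. Pltp, the phospholipid transfer protein, had effects of 0.47 ± 1.02 (adjusted p = 0.725) and 1.08 ± 1.02 (adjusted p = 0.593), and among Pdgfra-tdT mice it was highest in saline 3 and bleomycin 5, as the endothelial genes were.

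The calls in Pdgfra-tdT rest on the spread of both lines. Fitted on its own 8 mice, that line had 0 calls by limma, with a lowest adjusted p of 0.316. There 447 of 7191 genes had an unadjusted p under 0.05, which a share of about 0.05 would have where nothing changed. The 34 shared rises were among them, but they had been picked for their effects in the same 8 mice. In the joint fit the calls in Pdgfra-tdT were 1233 without Pdgfra-tdT saline 3 and 976 without Pdgfra-tdT bleomycin 8, against 69 with all mice, and the shared calls were 627 and 547 against 36. How many of the 34 shared rises were still called depended on the scaling and on single mice. It was 3 on unscaled FPKM, 11 when the sum left out predicted and receptor genes, 12 after quantile normalization, 13 without a filter on low values and 16 with a median of ratios. Leaving out 1 mouse gave 10 (without Pdgfra-tdT bleomycin 6), 11 (without Pdgfra-tdT saline 1 or bleomycin 7) and 12 (without Pdgfra-tdT saline 2) up to 34, and leaving out the 4 libraries with the fewest genes gave 30. Both effects were above 0 for all 34 in each of these fits.

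Chemokines were divided between the lines. Of 23 tested chemokine and receptor genes, 10 rose and 3 fell in Acta2-tdT and 2 rose in Pdgfra-tdT, beside 18%, 22.5% and 0.904% of all genes. The difference was higher for 5 (Ccl8, Ccl7, Ccl2, Cxcl10 and Cxcl14) and lower for 2 (Ccl6 and Ccl19), beside 2.81% and 1.68%. Of the 5, Ccl2, Cxcl10 and Cxcl14 met the filter only with the Acta2-tdT bleomycin mice, and 2 of the 19 genes that met it on the other groups were called higher. Ccl7, a monocyte chemoattractant, was 0.170, 0.707, 0.289 and 1.67 in Acta2-tdT saline and 9.66, 11.2, 14.7 and 11.7 in Acta2-tdT bleomycin, and differed by 3.20 ± 0.43 (adjusted p = 0.000146). Ccl8, a related monocyte chemoattractant, was 1.81, 2.85, 2.44 and 5.76 and 18.2, 85.8, 54.9 and 17.9 in these mice and differed by 3.19 ± 0.77 (adjusted p = 0.0211), a call lost without any one of 4 libraries. Cxcl14, a chemokine of epithelium and fibroblasts, differed by 1.79 ± 0.25 (adjusted p = 0.000189). None of these rose in Pdgfra-tdT, where all values of Ccl7 and Cxcl14 were under 2.

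On scaled FPKM of all 16 mice, fitted without sample weights, neutrophil and housekeeping lists gave no called difference. Of 13 tested neutrophil genes, 4 fell in Acta2-tdT, beside 22.5% of all genes, and 0 had a called difference by limma (0 at an unadjusted p under 0.05). On unscaled FPKM 7 of 12 tested rose, 0 fell and 6 had a difference called higher. With sample quality weights 11 of the 13 fell and the difference was lower for 1. S100a8, a subunit of calprotectin, was 678, 635, 903 and 617 in Acta2-tdT saline and 551, 301, 78.9 and 152 in Acta2-tdT bleomycin, at -1.72 ± 0.67 (adjusted p = 0.0484), and S100a9, its partner, had an effect of -1.62 ± 0.68 (adjusted p = 0.0632). On unscaled FPKM these effects turned to 1.27 (adjusted p = 0.137) and 1.35 (adjusted p = 0.136). Without the 4 libraries with the fewest genes, the difference of S100a8 went from -1.37 to -2.96 and that of S100a9 from -1.44 to -2.62. Both were far higher in Acta2-tdT saline than in any Pdgfra-tdT mouse. No difference was called by limma among 79 cytosolic ribosomal protein genes (0 at an unadjusted p under 0.05), 75 nuclear-encoded oxidative phosphorylation genes (1), 44 proteasome genes (2), 55 translation factors (5) or 12 glycolysis genes (1). The ribosomal genes had median effects of 0.80 in Acta2-tdT and 1.09 in Pdgfra-tdT, and their most abundant members Rpl41 and Rpl32, whose reads can be split with pseudogenes, had differences of -0.86 ± 0.94 (adjusted p = 0.657) and -0.79 ± 1.04 (adjusted p = 0.726). Uqcr10 and Cox6b1, subunits of respiratory complexes III and IV, had differences of -1.51 ± 0.90 (adjusted p = 0.376) and -0.88 ± 1.08 (adjusted p = 0.702). The interval of Rpl41 was -2.84 to 1.12, so these data do not show that the lists responded alike. Without the 4 libraries with the fewest genes, the median difference went from 0.34 to 1.35 for the proteasome genes and from 0.32 to 0.86 for the translation factors. The differences of Uqcr10 and Cox6b1 were then -1.64 and 0.68. The median difference then turned from -0.58 to 0.33 for oxidative phosphorylation and from -0.17 to 0.58 for the ribosomal genes. With sample quality weights, 37 oxidative phosphorylation and 17 ribosomal genes had a difference called lower instead, so these lists have no settled direction here.

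**Figure D5:**
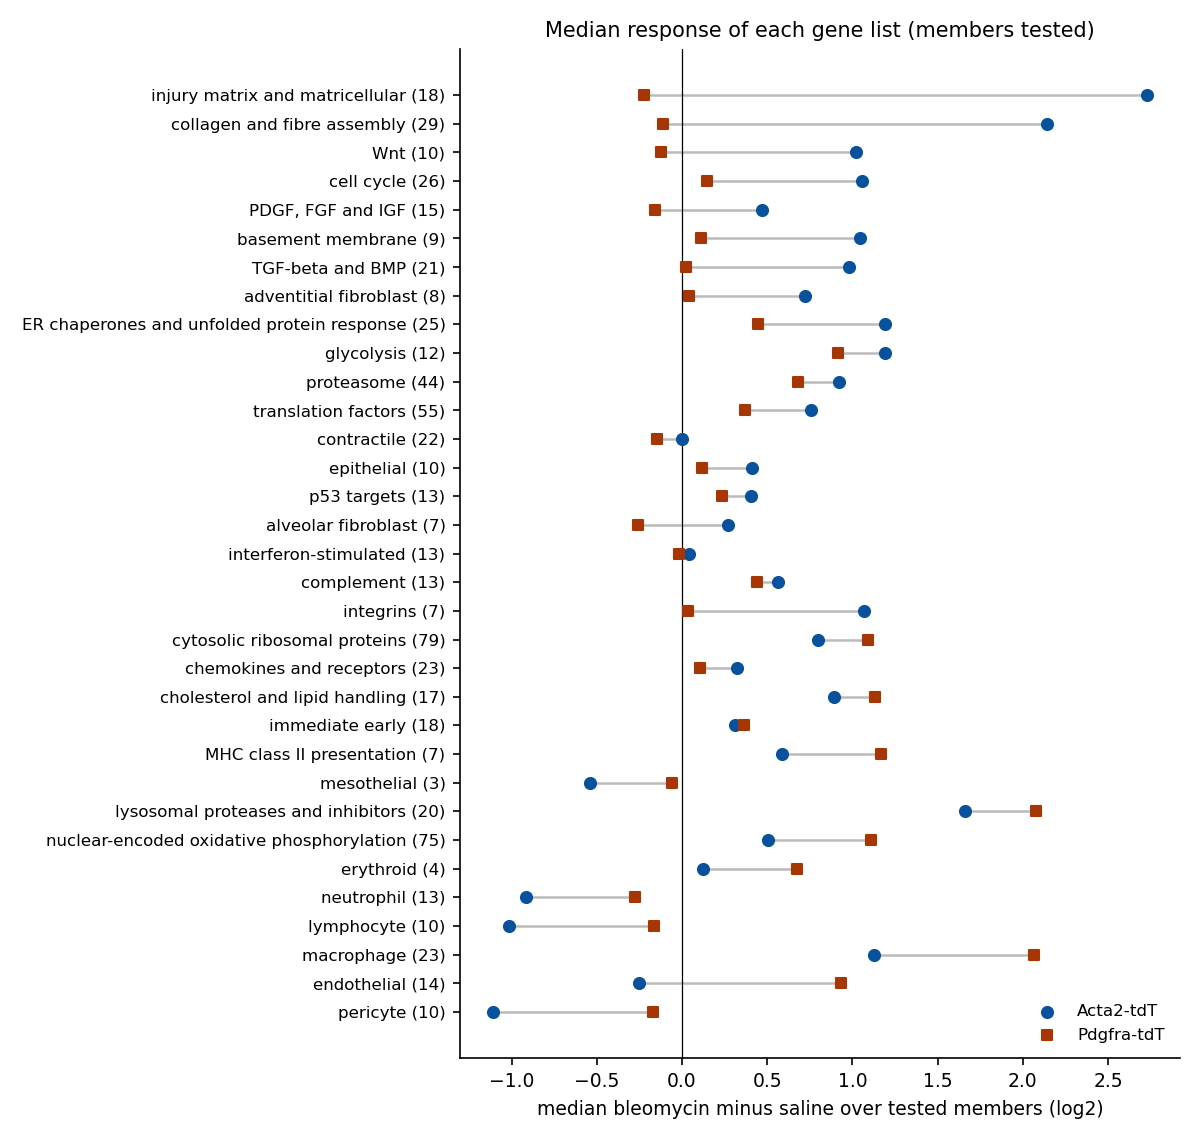
Median effect of bleomycin over the tested members of 33 gene lists (number tested in brackets), as log2 differences in Acta2-tdT (circles) and Pdgfra-tdT (squares), ordered by the median difference of effects. The injury matrix (2.73 and -0.22) and collagen lists (2.14 and -0.11) stand at the top, the macrophage list lies to the right in both lines (1.12 and 2.06), and the pericyte list stands at -1.11 and -0.17.

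The remaining lists gave few calls of the difference in the fit of all 16 mice without sample weights. It was higher for 1 of 7 tested integrins (Itga5), 1 of 18 immediate early genes (Fosl1) and 1 of 13 interferon-stimulated genes (Cxcl10), and each of these 3 genes met the filter only with the Acta2-tdT bleomycin mice. It passed for 0 by limma, in brackets with the number at an unadjusted p under 0.05, among 8 adventitial fibroblast (3), 7 alveolar fibroblast (1), 14 endothelial (0), 3 mesothelial (1), 4 erythroid (0), 7 MHC class II (0), 13 complement (1) and 13 p53 target genes (2). These counts depended on the libraries, and without the 4 with the fewest genes the difference was higher for 6 of the 13 interferon-stimulated genes, whose median went from 0.13 to 1.42, for 3 of the 8 adventitial genes, 3 of the 7 integrins, 3 of the 18 immediate early genes and 3 of the 13 p53 targets, and lower for 1 integrin, 2 immediate early genes and 2 p53 targets. Ly6a and Gsn, the most abundant adventitial markers, had differences of -1.87 ± 1.36 (adjusted p = 0.475) and -0.96 ± 1.16 (adjusted p = 0.696), which turned to 0.60 and 0.83 without the 4 libraries with the fewest genes. Inmt fell in Acta2-tdT, with an effect of -2.50 ± 0.61 (adjusted p = 0.00454) against -0.86 ± 0.61 (adjusted p = 0.487) in Pdgfra-tdT. On unscaled FPKM its Acta2-tdT effect was -0.079 (adjusted p = 0.923), so this fall is relative to the rest of the RNA. Egfl7, an endothelial signal protein, had a difference of -2.15 ± 1.41 (adjusted p = 0.424), with an interval of -5.11 to 0.80, and Pdgfra-tdT saline 3 was at 159 and the other saline mice of that line were at most 7.06. Without the 4 libraries with the fewest genes its difference turned to 0.63, the median of the 14 endothelial genes turned from -1.04 to 1.33, and 4 of them had a difference called higher. With sample quality weights 11 of the 14 were called lower, at a median of -1.90. Pdgfra-tdT saline 3, in which endothelial genes were high, is the only saline mouse of that line among the 12.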

How the data were processed

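tdTomato-positive lung cells of 16 mice were profiled, and the mice were grouped by line and treatment from the labels, with 4 mice in each of 4 groups. The authors deposited FPKM values per gene, made with TopHat2 (2.1.1), Bowtie2, Cufflinks (2.1.1) and Cuffdiff per the labels and the study's methods, on the mouse build GRCm38 (mm10). The files give no read counts. Read as counting error, the Cufflinks confidence limits imply about 1334760 to 2234290 fragments in Acta2-tdT saline, 4786050 to 8316450 in Acta2-tdT bleomycin, 1338030 to 1998830 in Pdgfra-tdT saline and 578120 to 3339850 in Pdgfra-tdT bleomycin, over genes with a lower limit above 0. This is an approximate gauge and no count test or counting interval was built on it, but the implied depth was unequal between groups and could change which low genes are seen.

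Rows of the same Ensembl gene were summed, which gave 49452 genes from 49534 rows. Of 21961 nuclear protein-coding genes, 11 were left out for their Cufflinks status. The remaining 21950 were scaled to one sum per sample (49122.5), the median over the samples, and 7191 genes that reached a scaled FPKM of 1 in no fewer than 4 of 16 samples were tested. Group means of log2(scaled FPKM + 1) were fitted with limma (3.58.1, R 4.3.3, empirical Bayes with a trend) on all 16 samples without covariates, and p-values were adjusted by Benjamini-Hochberg over all tested genes, with a threshold of 0.05. The contrasts were bleomycin against saline in each line and the difference between these effects. Tests are two-sided, and intervals are 95% intervals without adjustment.

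On simulated data for the difference of effects on 7191 genes, 0 of 200 genes changed by log2 1 were found with 0 false calls, 123 changed by log2 2 with 23 false calls and 170 changed by log2 3 with 19 false calls, and 0 calls were made where nothing was changed. Small differences could thus be missed. With changes of log2 2 and log2 3, false calls were a larger share of all calls than the threshold on the adjusted p allows. More of the called differences of effects may therefore be false than that threshold implies.

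The members and gene lists were chosen with earlier results of these data known. Named genes were Acta2 and Pdgfra, the 10 largest differences in each direction among called genes with a group mean of at least 10, the 6 largest shared rises and falls (by the smaller effect), genes called in opposite directions, and, from each described list, the 2 most abundant members and called members in order of p. Predicted genes and clone names were not named. Results on some genes that the rule picks are not reported here. Exceptions named after their values were seen are Trem2, Acp5, Cd68 and genes named only to complete a short count. Promoters were taken from RefSeq (GRCm38.p6).

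Alternatives were other scalings, another pseudocount, other filters, the trend, sample weights, the largest row per gene, a replicate block, each line alone and each sample left out. Leaving out the 4 libraries with the fewest genes, and a sum without predicted and receptor genes, were chosen after seeing the data. Python (3.11.15), pandas (2.3.3), NumPy (2.4.6) and matplotlib (3.10.9) were used for tables and plots.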

Additional observations from a re-analysis of the deposited data

Results flagged for a closer look

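Of the genes named above, 50 had a response to bleomycin that differed between the lines by the test of the difference itself. The differences of effects, as log2 values, were higher in Acta2-tdT for 30 of them. They were 5.38 for Timp1, 5.17 for Col1a1, 4.80 for Cthrc1, 4.64 for Col1a2, 4.20 for Serpine2, 3.72 for Igfbp2, 3.71 for Mgp and 3.63 for Thbs1. Next came 3.53 for Postn, 3.20 for Ccl7, 3.19 for Ccl8, 3.09 for Tnc, 3.03 for Thbs2, 2.87 for Wisp1 and 2.85 for Col5a1. Smaller ones were 2.56 for Des, 2.53 for Inhba, 2.26 for Col5a3, 2.08 for Sfrp1, 1.98 for Grem1, 1.91 for Ltbp1, 1.85 for Cdc20 and 1.82 for Krt18. The smallest were 1.79 for Cxcl14, 1.73 for Asns, 1.70 for Krt8, 1.58 for Dkk3, 1.37 for Mcm6, 1.35 for Fgfr1 and 1.34 for Pdgfra. For 20 the difference was lower in Acta2-tdT. The values were -3.92 for Olfr46, -3.65 for Ccl6, -3.45 for Tcap, -3.41 for Wfdc21, -3.36 for Olfr639, -3.30 for Fth1, -3.16 for Higd1b and -3.15 for Grk4. Next came -3.09 for Mustn1, -3.05 for Actc1, -3.04 for Cox4i2, -3.03 for Tyrobp, -2.42 for Cd2, -2.14 for Ppp1r14a, -1.81 for Gucy1a3 and -1.77 for Myh11. The smallest were -1.52 for Fabp4, -1.52 for Gucy1b3, -1.37 for Lmod1 and -1.10 for Ednra.

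In 31 of 384 groups of 4 values, 1 sample lay far from the other 3 by Dixon's test, where chance gives about 1 in 20 groups. Pdgfra-tdT saline 3 had 6479 genes with an FPKM of at least 1 and a median receptor FPKM of 0.175, and Pdgfra-tdT bleomycin 5 had a median receptor FPKM of 0.0917. The others were single genes, as log2(scaled FPKM + 1). In Pdgfra-tdT saline 3 they were 1.32 for Birc5, 5.10 for Hsp90b1, 6.10 for Id1, 5.00 for Id3, 0.40 for Inhba, 7.91 for Ly6a, 5.11 for Olfr639 and 5.30 for Stmn1. In Pdgfra-tdT bleomycin 5 they were 2.52 for Col1a1, 2.97 for Col1a2 and 1.29 for Thbs1. In Pdgfra-tdT bleomycin 8 they were 5.47 for Ctsd, 0.41 for Lmod1, 2.65 for Lpl and 1.23 for Mmp12. Elsewhere they were 0.29 for Grem1 in Pdgfra-tdT saline 1, 0.12 for Tcap in Pdgfra-tdT bleomycin 7, 1.19 for Cox4i2 in Acta2-tdT bleomycin 6, 6.99 for Cst3 in Acta2-tdT bleomycin 6, 1.75 for Fabp4 in Acta2-tdT saline 3, 4.84 for Lpl in Acta2-tdT bleomycin 7, 0.59 for Ltbp1 in Acta2-tdT saline 3 and 0.11 for Olfr618 in Acta2-tdT bleomycin 5. The remaining values were 1.35 for Olfr618 in Acta2-tdT saline 2, 0.83 for Pdgfra in Acta2-tdT saline 2, 4.07 for Pltp in Acta2-tdT saline 4, 1.74 for Thy1 in Acta2-tdT saline 1 and 3.01 for Timp1 in Acta2-tdT saline 2.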

How the results depend on the processing

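The number of genes with a called difference (323, of which 202 higher and 121 lower in Acta2-tdT) depended on the scaling and the libraries, and so did the calls within Acta2-tdT (2916), within Pdgfra-tdT (69) and in both lines (36). On unscaled FPKM these were 6700 (6556 higher), 9305, 7 and 7. With a median of ratios they were 155 (121 higher and 34 lower), 1010 within Acta2-tdT and 19 in both, and after quantile normalization 211 (56 lower), 1192 and 16. A sum without predicted and receptor genes gave 149 (114 and 35), 1057 and 14. Leaving the 100 most abundant genes out of the sum gave 65 lower, and subtracting the receptor background gave 80 lower. A pseudocount of 0.1 gave 545 (129 and 416) and 105 within Pdgfra-tdT. Without a filter there were 31 calls in Pdgfra-tdT and 16 in both, and with a mean of at least 5 there were 54 (19 and 35) and 297 in Acta2-tdT, where fewer genes were tested. Sample quality weights gave 1683 (525 and 1158), 5074, 2735 and 1978. Each line fitted on its own samples gave 4787, 0 (447 at an unadjusted p under 0.05) and 0 in both. Without the 4 libraries with the fewest genes there were 2193 (1170 and 1023), 457 within Pdgfra-tdT and 146 in both, with the lone saline mouse left in the Pdgfra line assumed to vary like the other groups. For the other shifts the cause was not tested.

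Leaving out each sample gave 190 (without Acta2-tdT bleomycin 8) to 959 (without Pdgfra-tdT bleomycin 5) called differences, with 141 to 405 higher and 49 to 554 lower. It gave 2062 to 3751 calls within Acta2-tdT, 22 (without Pdgfra-tdT bleomycin 6) to 1233 (without Pdgfra-tdT saline 3) within Pdgfra-tdT and 12 to 627 in both. On unscaled FPKM the difference of effects turned to 1.12 for Ednra, 0.017 for Fabp4, 0.47 for Lmod1, 2.47 for Lpl, 0.63 for Myh11 and 0.12 for Ppp1r14a. For the 50 named genes with a called difference, 1298 of 1469 values under alternatives passed in the same direction, 166 kept the direction without passing and 5 had the opposite one. For the 43 others, 44 of 1283 values passed. With the replicate number as a block there were 211 called differences, 72 of them lower. Same-numbered samples of the lines deviated together at r = 0.19, 0.31, 0.23, -0.24, -0.02, 0.03, 0.12 and -0.19 for numbers 1 to 8, and only numbers 2, 3 and 7 matched best with their own, so the numbers were not taken as a pairing. With 4 mice in a group and unequal implied depth, little can be said of genes near 1.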
